A study of Mus musculus with 12 samples.

Results

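Prdm9 and Cpeb1 are 2 genes of meiosis and the germline among the 2281 genes of the deposited table. They were chosen by name with earlier results of these data known, so they were not fixed in advance of the p-values given here. Their transcripts were measured by RNA-seq in GC1, an immortalised mouse spermatogonial line, in 12 libraries. Each of 4 groups held 3 libraries, all labelled 24 h. The first group was wild type (WT). The second carried a knockout of Ythdf2 (Ythdf2-ko), which encodes a reader of m6A-modified RNA. The third was the knockout with an overexpression control (Ythdf2-ko-OE-CTR). The last was the knockout overexpressing Setdb1 (Ythdf2-koOE-setdb1), which encodes a histone H3K9 methyltransferase; Setdb1 itself was not in the table, so its overexpression was not checked here. The 3 knockout groups share a line code in the labels, so a Ythdf2 effect and any other difference between the lines cannot be told apart. Nothing in the labels says whether the libraries of a group came from separate cultures, so the p-values measure the spread between these libraries.

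Levels are in FPKM, that is, fragment numbers divided by transcript length and by library size, so levels of both genes can be set side by side per length. Read depth is unknown, and the precision of these low values rests on the spread between libraries. The authors marked all 2281 genes as significant in their deposited table, so shares of changed genes describe a preselected set. The adjusted p-values cover only that set and are no support independent of the authors' selection. Ythdf2 stood at 8.51, 9.33 and 9.15 FPKM in wild type and at 5.79, 6.07 and 6.28 FPKM in the knockout, a log2 difference of -0.50 (limma adjusted p = 9.75e-06). The groups did not overlap, and the targeted transcript was lower but still present. Of 30 spermatogonial marker symbols 7 were in the table, of 25 for spermatocytes and spermatids only Odf2, and of 13 for oocytes 0. A gene outside the table was not analysed here, which says nothing of its level.

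PRDM9 is a meiotic protein that places methyl groups on histone H3 at the sites bound by its zinc finger array, and these sites become hotspots of recombination. In the mouse testis it is known from germ cells entering meiosis, and mice without it are sterile. CPEB1 binds the cytoplasmic polyadenylation element, a short U-rich motif in the 3′ UTR of target RNAs, and controls their poly(A) tails and their translation. It is best known from maturing oocytes, and germ cells of mice without it fail to progress through meiosis.

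Prdm9 was lower in all 3 knockout groups than in wild type, and Cpeb1 was higher in all of them. In the knockout Prdm9 fell by 41.3% from wild type, and Cpeb1 stood at 2.11 times its wild-type level. With Setdb1 overexpression neither gene overlapped its wild-type range. How common that is over all tested genes was not counted, but 45.4% of them were called lower and 39.5% higher in this comparison. Per length, Prdm9 exceeded Cpeb1 in every library, by 4.82 ± 0.561 times in wild type and by 1.35 ± 0.233 times in the knockout (SD, n = 3 each).

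The promoters of both genes are shown because the genes moved in opposite directions between the same groups. RefSeq (GRCm38.p6) gives Prdm9 a pair of start sites 1023 bases apart and Cpeb1 a single start site, each with 250 bases before and 50 after the start, on the minus strand. Capitals mark matches on either strand to TTCCCGCC (an E2F-type motif), CACGTG (the E-box bound by MYC and MAX), GGGCGG (the GC box), CCAAT and TATAAA.
Prdm9, outer start, chr17:15564305-15564604: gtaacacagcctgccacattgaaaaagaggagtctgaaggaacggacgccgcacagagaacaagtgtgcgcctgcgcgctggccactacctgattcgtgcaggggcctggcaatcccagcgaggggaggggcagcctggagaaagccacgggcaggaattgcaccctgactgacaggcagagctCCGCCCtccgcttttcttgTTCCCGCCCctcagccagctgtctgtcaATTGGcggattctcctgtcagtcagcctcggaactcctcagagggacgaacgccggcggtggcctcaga
Prdm9, inner start, chr17:15563282-15563581: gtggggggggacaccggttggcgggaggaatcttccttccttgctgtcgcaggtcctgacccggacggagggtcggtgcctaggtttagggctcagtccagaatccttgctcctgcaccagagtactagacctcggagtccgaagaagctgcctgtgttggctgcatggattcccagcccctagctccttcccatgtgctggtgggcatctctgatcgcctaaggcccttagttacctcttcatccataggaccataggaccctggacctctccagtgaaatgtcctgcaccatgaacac
Cpeb1, chr7:81454709-81455008: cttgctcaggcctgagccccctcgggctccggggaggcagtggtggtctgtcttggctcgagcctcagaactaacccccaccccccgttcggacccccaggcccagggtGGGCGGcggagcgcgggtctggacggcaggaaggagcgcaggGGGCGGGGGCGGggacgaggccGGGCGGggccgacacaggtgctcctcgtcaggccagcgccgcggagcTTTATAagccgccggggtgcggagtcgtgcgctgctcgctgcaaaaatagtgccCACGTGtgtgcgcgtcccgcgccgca

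The outer Prdm9 window held 1 TTCCCGCC, 2 GGGCGG matches, of which 1 overlaps it, and 1 CCAAT match. The inner window held none of the 5 motifs. The Cpeb1 window held 4 GGGCGG matches, 1 TATAAA match starting 30 bases before the start site and 1 CACGTG 24 bases after it. Of 32851 RefSeq promoter windows of the same length, 2.19% hold TTCCCGCC, 7.15% CACGTG, 35.7% GGGCGG, 37.4% CCAAT and 13.6% TATAAA. Among the 2299 windows of genes in the table the shares are 4.44%, 9.83%, 64.8%, 38.5% and 8.35%. The ratio of observed to expected CpG was 0.84 for Cpeb1, 0.63 for the outer and 0.35 for the inner Prdm9 window, beside a median of 0.77 in windows of table genes. The motifs were chosen after the sequences were read, so the shares do not show the matches to be unusual. These matches describe the letters of the windows and not binding in these cells.

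YTHDF2 binds m6A, which is placed mainly within a consensus whose common form is GGACT in the DNA letters used here. The longest coding Prdm9 transcript holds 1 GGACT in 3460 bases, 0.29 per kb, and 8.39% of table genes have as low a density or lower. The longest Cpeb1 transcript holds 6 in 3111 bases, 1.93 per kb, and 87.8% of table genes have as low a density or lower. The median over 2277 genes with a complete coding transcript was 1.06 per kb. Of the 6 in Cpeb1, 4 lie in the coding part and 2 in the 3′ UTR, and the 1 in Prdm9 is coding. The coding match of Prdm9 and the 3′ UTR matches of Cpeb1 are shown with the motif in capitals.
Prdm9, coding: ccctgaagctGGACTtggagtatgg
Cpeb1, 684 bases after the stop: tgtgtctgggGGACTgctggtcaca
Cpeb1, 864 bases after the stop: cacagtcacaGGACTttttcttttg
Whether these sites carry m6A in GC1 cells was not measured.

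Prdm9 (ENSMUSG00000051977) lies on chromosome 17. The table lists 7 transcripts for it. In GENCODE M21 these are 3 coding transcripts of 1447 to 3460 bases, 3 with a retained intron and 1 processed transcript. The values are sums over the gene and do not separate transcripts that can make the protein from those that cannot. The longest coding transcript holds 2544 coding bases, of which the zinc finger array is the part that gives PRDM9 its binding sites. A search for the C2H2 spacing found 11 fingers in tandem, of which 10 were whole units of 84 bases. Pairs of whole units were identical at 94.0% of bases or more, with a median of 96.4%, and only 6 of the 84 positions varied. The array makes up 26.5% of the transcript, so a read within it can match several units of the same gene. A pair of units is shown because it is this array that sets PRDM9 apart from the other members of its family. Capitals mark the 6 variable positions (28, 29, 33, 37, 38 and 46 from the first base of a unit).
Prdm9 unit 1: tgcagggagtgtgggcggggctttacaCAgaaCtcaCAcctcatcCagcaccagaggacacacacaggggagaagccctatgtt
Prdm9 unit 6: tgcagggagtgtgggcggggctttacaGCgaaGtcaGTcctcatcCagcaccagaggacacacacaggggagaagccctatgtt
These are reference sequences of GENCODE M21 (GRCm38), and the array of the GC1 line itself was not analysed here.

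In wild type Prdm9 stood at 2.98, 3.09 and 2.79 FPKM, with a mean of 2.95 ± 0.149 (SD, n = 3). In the knockout it stood at 1.70, 1.64 and 1.86 FPKM, with a mean of 1.74 ± 0.114. The groups did not overlap, and the highest knockout library lay 0.932 FPKM below the lowest wild-type library. The overexpression control held 1.63, 1.60 and 1.34 FPKM (mean 1.52 ± 0.157), and Setdb1 overexpression held 1.80, 1.66 and 1.53 FPKM (mean 1.66 ± 0.137). All 9 libraries with the knockout were below all 3 wild-type libraries. How many other genes of the preselected table separate in this way was not counted. In a comparison added after the values were seen, the mean of the 3 knockout groups differed from wild type in 1910 of 2267 genes.

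**Figure D1:**
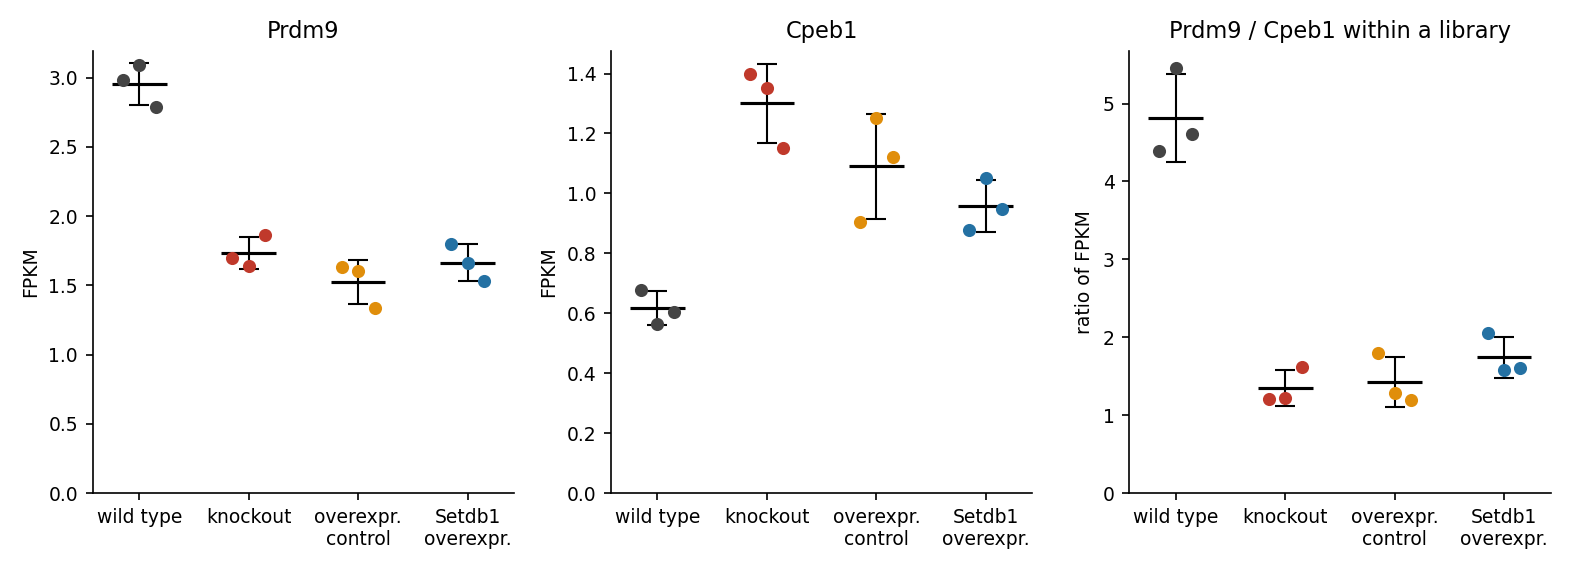
FPKM of Prdm9 and Cpeb1 and the ratio of the 2 values within a library, for 4 groups of 3 libraries. Points are libraries, horizontal lines are means and bars are SDs over 3 libraries. Prdm9 is highest in the 3 wild-type libraries (2.79 to 3.09 FPKM) and Cpeb1 is lowest in them (0.566 to 0.678 FPKM), and the ratio falls from 4.39 to 5.46 in wild type to 1.20 to 2.05 in the other 9 libraries.

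Against wild type, Prdm9 fell by 0.53 on the log2(FPKM + 1) scale in the knockout (SE 0.057, limma adjusted p = 1.35e-05). That scale adds 1 FPKM before the logarithm and so understates the change of a low gene. Among the 2267 genes tested, 39.7% were called lower in this comparison, so a call alone does not set Prdm9 apart. A larger change in either direction was found for 12.4% of genes. Among the 456 tested genes with a mean between 0.5 and 4 FPKM, 43.6% were called lower and 54 fell further than Prdm9. The two-sided exact permutation test over the 6 libraries gave p = 0.1, the smallest it allows.

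With Setdb1 overexpression Prdm9 was also below wild type, at -43.7% (log2 difference -0.57, SE 0.057, limma adjusted p = 5.62e-06, where 45.4% of genes were called lower). The 3 knockout groups lay close together. The overexpression control was 12.2% below the unmodified knockout, a log2 difference of -0.12 with a 95% confidence interval of -0.24 to 0.01 (limma adjusted p = 0.251). All 3 control libraries lay below the 3 knockout libraries, by as little as 0.0181 FPKM. In that comparison 4.32% of genes were called lower and 3.04% higher (98 and 69 genes). The split was 86 and 91 after median-of-ratios scaling, and 77 and 85 after quantile normalization. Setdb1 overexpression against its control gave 0.08 with an interval of -0.05 to 0.21 (limma adjusted p = 0.248), with overlapping libraries, where 33.8% of genes were called higher and 30.6% lower. Without control library 3, the lowest of its group, these differences were -0.06 and 0.03, and without Setdb1 library 1 the latter was 0.04. The intervals span 0, and they do not show that the groups are alike. From the highest level down, the order was wild type, knockout, Setdb1 overexpression and control. Beyond the step from wild type to the knockout, no neighbours in it passed the test. Setdb1 overexpression and the unmodified knockout differed by -0.04 (limma adjusted p = 0.574), in a comparison added after the values were seen.

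**Figure D2:**
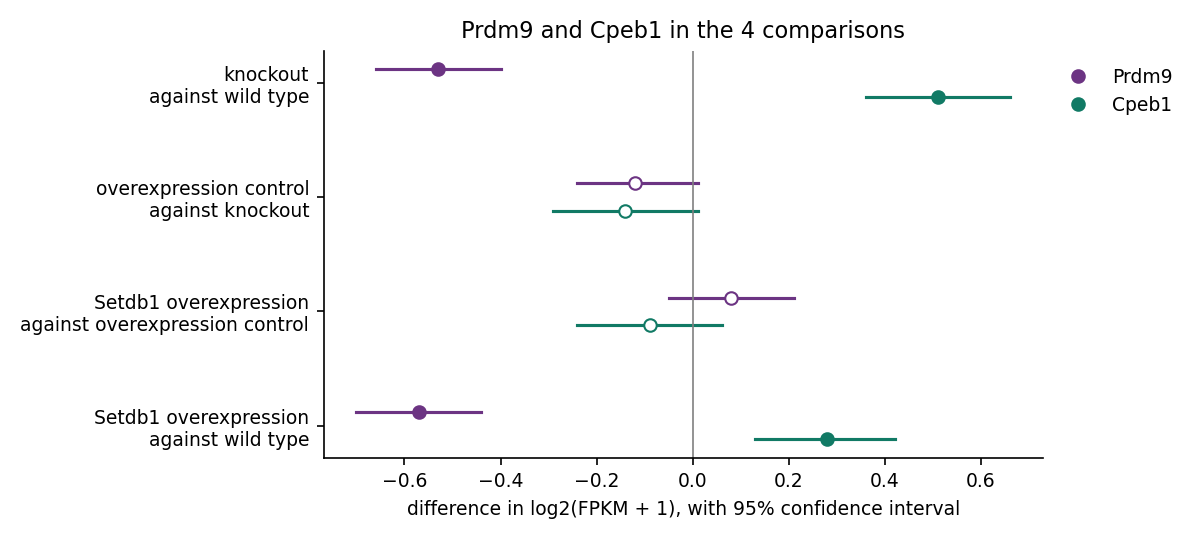
Difference in log2(FPKM + 1) of Prdm9 and Cpeb1 in 4 comparisons, with 95% confidence intervals from limma. Filled points passed an adjusted p of 0.05 and open points did not; Prdm9 is below 0 and Cpeb1 above 0 in both comparisons with wild type, and the intervals span 0 in the other 2 comparisons.

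Cpeb1 (ENSMUSG00000025586) lies on chromosome 7, with 9 listed transcripts. In GENCODE M21 these are 3 coding transcripts of 1777 to 3111 bases, 5 processed transcripts of 326 to 821 bases and 1 with a retained intron. Here too the gene value does not say which transcript was present.

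Wild-type libraries held the lowest Cpeb1 levels of the 12, with 0.678, 0.566 and 0.606 FPKM (mean 0.617 ± 0.0567, SD, n = 3). The knockout held 1.40, 1.35 and 1.15 FPKM (mean 1.30 ± 0.133), and its lowest library lay 0.474 FPKM above the highest wild-type library. The overexpression control held 0.903, 1.25 and 1.12 FPKM (mean 1.09 ± 0.177) and was the most uneven group, with a CV of 16.2%. Setdb1 overexpression held 0.878, 1.05 and 0.947 FPKM (mean 0.959 ± 0.0878). All 9 libraries with the knockout were above all 3 wild-type libraries, a separation whose share over all genes was not counted either.

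Cpeb1 rose by 0.51 on the log2(FPKM + 1) scale in the knockout (SE 0.066, limma adjusted p = 5.28e-05), where 37.1% of genes were called higher. With 0.1 FPKM added in place of 1, the difference was 0.97 (limma adjusted p = 4.41e-05). A larger change in either direction was found for 13.7% of tested genes, and 41 of the 456 genes of similar level rose further. The exact two-sided permutation p over 3 against 3 libraries was 0.1, the smallest possible. With Setdb1 overexpression Cpeb1 stood 55.5% above wild type (log2 difference 0.28, SE 0.066, limma adjusted p = 0.00271, where 39.5% of genes were called higher). In that comparison 58.1% of all tested genes changed by more on this scale, and 126 of the 456 genes of similar level rose further. With 0.1 FPKM added in place of 1, the difference was 0.56.

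From the lowest level up, the order was wild type, Setdb1 overexpression, overexpression control and unmodified knockout. Only the step from wild type to Setdb1 overexpression passed the test. The control differed from the unmodified knockout by -0.14 (95% confidence interval -0.29 to 0.01, limma adjusted p = 0.235). That value was -0.07 without control library 1 and -0.05 without the libraries with haemoglobin transcripts. Setdb1 overexpression differed from its control by -0.09 (interval -0.24 to 0.06, limma adjusted p = 0.244). The latter value depended on single control libraries: it was -0.16 (limma adjusted p = 0.0455) without library 1, the lowest of its group, and -0.04 without library 2, the highest. Against the unmodified knockout, in a comparison added after the values were seen, Setdb1 overexpression differed by -0.23 (limma adjusted p = 0.0111). In that comparison 694 of 2267 tested genes were called lower and 719 higher, so a call alone does not set Cpeb1 apart. All 3 Setdb1 libraries lay below the 3 knockout libraries (exact two-sided p = 0.1, the smallest possible). The control stood between them, 16.2% below the knockout.

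The mean of 4 haemoglobin genes was at least 45.1 FPKM in wild-type libraries 2 and 3 and knockout libraries 1 and 2, and at most 1.28 FPKM in the other 8. Within the 4 libraries high in them, Prdm9 held 2.79 to 3.09 FPKM in wild type and 1.64 to 1.70 in the knockout, and Cpeb1 held 0.566 to 0.606 and 1.35 to 1.40. In the other libraries of these groups Prdm9 went from 2.98 to 1.86 FPKM and Cpeb1 from 0.678 to 1.15, with 1 library in each group. Of these, wild-type library 1 was not free of haemoglobin transcripts, at 1.28 FPKM beside 0.0307 in knockout library 3. With those 4 libraries left out, 1 wild-type and 1 knockout library remained, each assumed to vary like the other groups. That fit gave -0.48 for Prdm9 (limma adjusted p = 0.0118) and 0.36 for Cpeb1 (limma adjusted p = 0.0453) and has no replicates of its own in either group. The call of Cpeb1 with Setdb1 overexpression against wild type was lost in that fit (0.22, limma adjusted p = 0.0807).

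Marker sums of several cell types also differed between wild type and the knockout groups. The 7 spermatogonial markers summed to 139 to 145 FPKM in wild type, 99.1 to 106 in the knockout, 106 to 109 in the control and 84.8 to 93.0 with Setdb1. In wild type Cd9 (84.9 FPKM) made up most of that sum, and it stood at 49.4 FPKM in the knockout. The 7 testis somatic markers summed to 189 to 191 FPKM in wild type and 105 to 125 in the 9 knockout libraries. Clu made up most of that sum and went from 145 to 70.6 FPKM in the knockout, while 3 of the 7 rose, namely Inhbb (3.27 to 10.6 FPKM), Kitl (2.11 to 4.06) and Gata4 (6.86 to 8.65). The 7 epithelial markers summed to 839 to 872 FPKM in wild type and 330 to 400 in the others, and the 8 fibroblast markers to 403 to 422 and 548 to 605. In wild type Krt19 (692 FPKM) and Krt14 (152) made up most of the epithelial sum, and Fn1 (228) and Fstl1 (94.7) most of the fibroblast sum. In the knockout 4 of the 7 epithelial markers fell and 1 rose, and of 7 tested fibroblast markers 6 rose and 1 fell. Over all tested genes 39.7% were lower and 37.1% higher. The part of these differences in the levels of Prdm9 and Cpeb1 was not tested, and in bulk RNA fewer cells of a type and less RNA per cell cannot be told apart. Among the 7 spermatogonial markers 4 fell and 2 rose in the knockout, beside 39.7% lower and 37.1% higher over all tested genes. The surface marker gene Cd9 went from 84.9 ± 0.422 to 49.4 ± 1.36 FPKM, and Bcl6b, a self-renewal factor gene, went from 3.30 ± 0.209 to 2.02 ± 0.174 FPKM. The transcription factor gene Foxo1 rose from 4.65 ± 0.1 to 5.93 ± 0.223 FPKM, and the cyclin gene Ccnd2 from 15.9 ± 0.121 to 18.1 ± 0.308 FPKM.

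Around Prdm9, few genes of meiosis were in the table. Of 33 symbols for PRDM9 partners and hotspot recombination, older names included, 4 were in it. Of the 3 other than Prdm9, 2 fell and 0 rose in the knockout, with a median log2 difference of -0.06. Over all tested genes 39.7% were lower and 37.1% higher, with a median of -0.02. Hells, which encodes a chromatin remodeller that acts with PRDM9 at hotspots, went from 22.1 ± 0.843 to 14.6 ± 0.184 FPKM (-0.57, limma adjusted p = 5.19e-08). The H3K9 methyltransferase gene Ehmt2 fell by 0.06 (adjusted p = 0.0476 in limma), and Ewsr1 stood at -0.02 (adjusted p = 0.671 in limma). HELLS also acts outside meiosis, in DNA methylation. With Setdb1 against its control, Ewsr1 (0.28) and Ehmt2 (0.23) rose, while Hells stood at -0.05 and did not pass.

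Of 37 symbols for the meiotic axis, synapsis and meiotic entry 3 were in the table, and in the knockout 2 fell and 1 rose, where 39.7% of all tested genes were lower and 37.1% higher. So few genes of a preselected table do not describe the meiotic genes as a group. Trip13, an ATPase gene of the meiotic and mitotic checkpoints, went from 9.87 ± 0.498 to 5.67 ± 1.32 FPKM (-0.73, limma adjusted p = 0.00959). Piwil2, a piRNA pathway gene of germ cells, went from 0.241 ± 0.0178 to 0.145 ± 0.0166 FPKM (-0.12, limma adjusted p = 0.0255). The nuclear envelope gene Sun1 rose by 0.12. Of the other PRDM genes, Prdm10 fell by 0.17, to 1.32 ± 0.0801 FPKM, and Prdm4 stood at -0.09 and did not pass (adjusted p = 0.475 in limma). Prdm16 rose by 0.09 from 0.0381 to 0.101 FPKM, values near the floor. Its means in wild type and with Setdb1 (0.0584) lay below the filter of 0.1 FPKM, so it was tested through the knockout and control libraries. No other PRDM gene of the list was in the table.

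Most tested genes of a mixed list on CPEB, polyadenylation and deadenylation fell in the knockout, while Cpeb1 and its paralog Cpeb2 rose. The list also holds a cap-binding factor gene and a kinase gene. Of 62 symbols 18 were in the table. Of the 17 other than Cpeb1, 13 fell and 3 rose, beside 39.7% lower and 37.1% higher over all tested genes. Their median log2 difference was -0.21, beside -0.02 over all tested genes. Cpeb2 went from 1.83 ± 0.0957 to 2.58 ± 0.0664 FPKM (0.34, limma adjusted p = 0.000104). Msi2, which encodes an RNA-binding protein of stem cells, went from 2.05 ± 0.054 to 1.09 ± 0.150 FPKM (-0.55). Aurka, whose kinase phosphorylates CPEB1 in frog oocytes, went from 37.8 ± 0.855 to 28.7 ± 0.337 FPKM (-0.39). The cap-binding factor gene Eif4e (-0.37), the deadenylase subunit gene Cnot6 (-0.33) and Tob1 (-0.25) also fell. The poly(A)-binding protein gene Pabpc4 (0.29) and Ybx1 (0.15) rose. With Setdb1 against its control 6 of the 17 rose and 4 fell, with a median of 0.02, beside 33.8% higher, 30.6% lower and a median of 0.01 over all tested genes. Cnot6 (0.33), Cnot7 (0.25) and Aurka (0.17) rose, and Tob2 (-0.31) and Pabpc4 (-0.29) fell. Against wild type, Setdb1-overexpressing cells had 9 of the 17 lower and 3 higher, beside 45.4% and 39.5% of all tested genes, with Tob1 at -0.50 and Tob2 at -0.37.

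Of 24 symbols for transcripts described as CPEB1 targets in various cells, 10 were in the table. In the knockout 7 fell and 1 rose, with a median of -0.32, beside 39.7% lower, 37.1% higher and a median of -0.02 over all tested genes. The mitotic kinase gene Cdk1 went from 23.9 ± 0.526 to 14.4 ± 1.58 FPKM (-0.70), and the cyclin genes Ccnb1 and Ccnb2 fell by 0.46 and 0.39. Myc fell by 0.33 and the transcription factor gene Twist1 rose by 0.54. Hif1a (-0.01) and Mmp9 (-0.15) did not pass. Most of those that fell are genes of cell division, and Aurka is in both lists. With Setdb1 against its control 6 rose and 2 fell, with a median of 0.16, beside 33.8%, 30.6% and a median of 0.01 over all tested genes. Bub3 (0.40), Twist1 (0.29) and Cdk1 (0.26) rose, and Myc (-0.70) and Hif1a (-0.58) fell. Against wild type, Setdb1-overexpressing cells had Myc at -1.33, Mmp9 at -0.53 and Twist1 at 0.84, all past the threshold. Mmp9 was uneven in wild type (0.554 ± 0.342 FPKM) and in the knockout (0.397 ± 0.266) and stood at 0.0937 ± 0.0307 in the control and 0.0548 ± 0.021 with Setdb1. The leukocyte gene S100a9 likewise stood at 14.8 ± 12.2 FPKM in wild type, 14.0 ± 11.8 in the knockout and 0.0265 ± 0.0458 with Setdb1, and its part in the Mmp9 values was not tested.

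**Figure D3:**
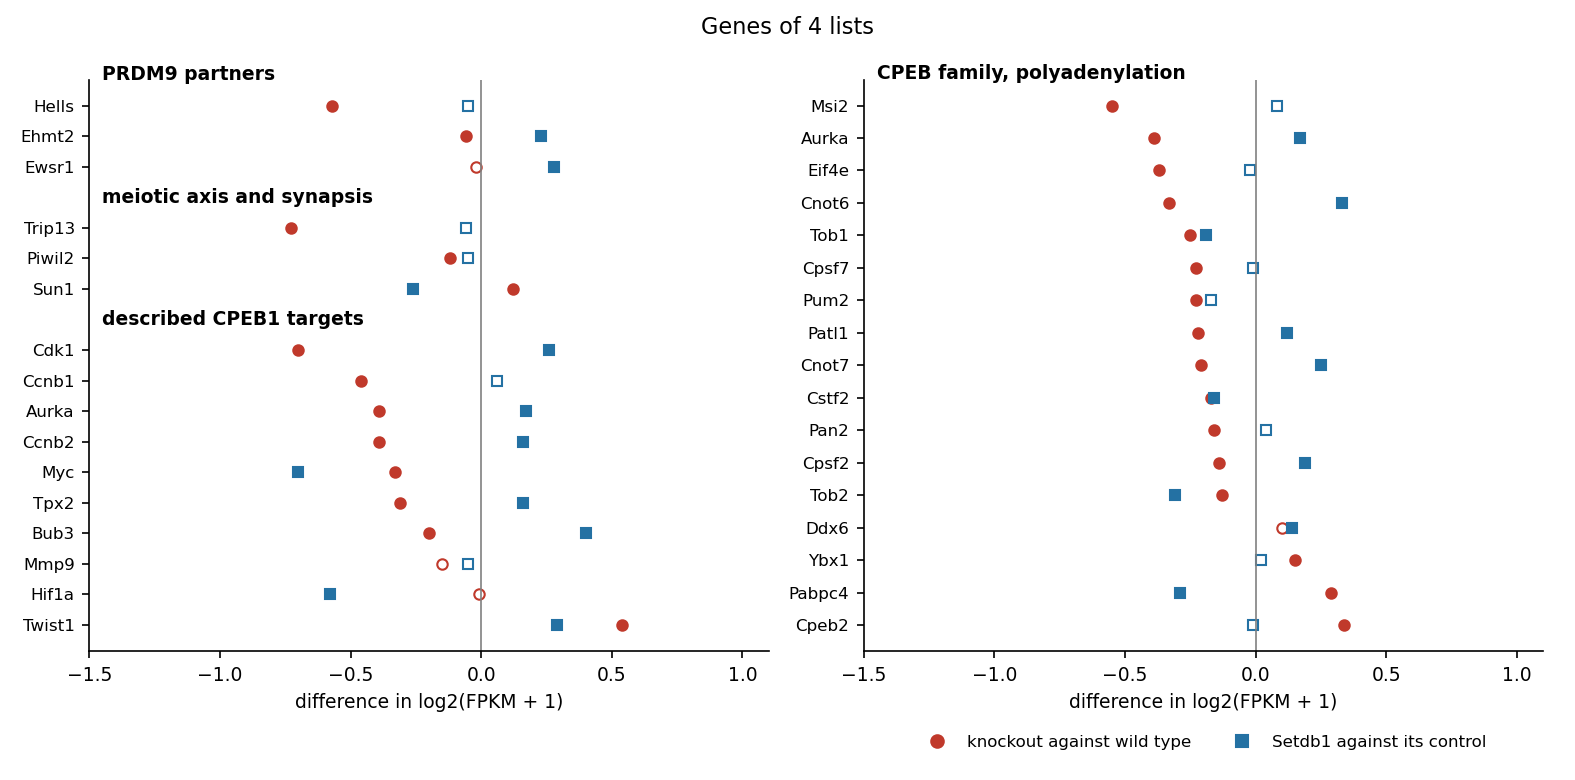
Difference in log2(FPKM + 1) of genes in 4 lists, with the knockout against wild type as circles and Setdb1 overexpression against its control as squares. Filled symbols passed an adjusted p of 0.05 in limma; in the knockout 13 of 17 genes of the CPEB and polyadenylation list lie below 0 and passed, while Cpeb2 stands at 0.34.

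A cytoplasmic polyadenylation element, searched as TTTTAT or TTTTAAT in the last 100 bases of the longest coding transcript, was found in 20.2% of 2277 table genes. Neither member holds it there. Cpeb1 has 4 elsewhere in its 3′ UTR and Prdm9 has 0, beside 64.5% of table genes with the element somewhere in the 3′ UTR. Each of the 10 listed targets holds it somewhere in the 3′ UTR. Of these targets 3 hold it in the last 100 bases, and these windows are shown as examples of the motif.
Aurka, chromosome 2: taaaggctattTTTTATgttggagttct
Myc, chromosome 15: accataattttTTTTATttaaagacatt
Twist1, chromosome 12: tgcattcatatTTTTATgactgttttgt
Of 458 tested genes with the element there, 28.6% rose and 45.4% fell in the knockout, with a median log2 difference of -0.09. Of 1805 without it, 39.3% rose and 38.2% fell, with a median of 0.01. With Setdb1 against its control the medians were 0.02 and 0.01. The annotated end may not be the end used in these cells, and the change is one of RNA level, not of tail length or translation.

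The genes whose pattern over the 12 libraries was most like that of each member were taken by Pearson correlation of log2(FPKM + 1), as a description. All libraries share the 4 groups, so a gene that differs between wild type and the rest ranks high. For Prdm9 these were Itpr3, a calcium channel gene (r = 0.975), the secreted chaperone gene Clu (0.972), the helicase gene Rtel1 (0.969), the bone transcription factor gene Runx2 (0.966) and the replication gene Cdc45 (0.965). Relative to wild type, Clu had the widest range of the 5, from 145 ± 1.03 FPKM in wild type to 63.3 ± 0.520 in the control, and Itpr3 the narrowest, from 34.6 ± 0.368 to 29.3 ± 0.336. For Cpeb1 they were the lipid phosphatase gene Plpp3 (r = 0.955), Cpeb2 (0.946), the transcriptional inhibitor gene Id3 (0.946), Sdr39u1 (0.929) and the small GTPase gene Ralb (0.922). Plpp3 went from 1.72 ± 0.230 FPKM in wild type to 3.58 ± 0.296 in the knockout, 2.90 ± 0.103 in the control and 2.43 ± 0.112 with Setdb1.

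**Figure D4:**
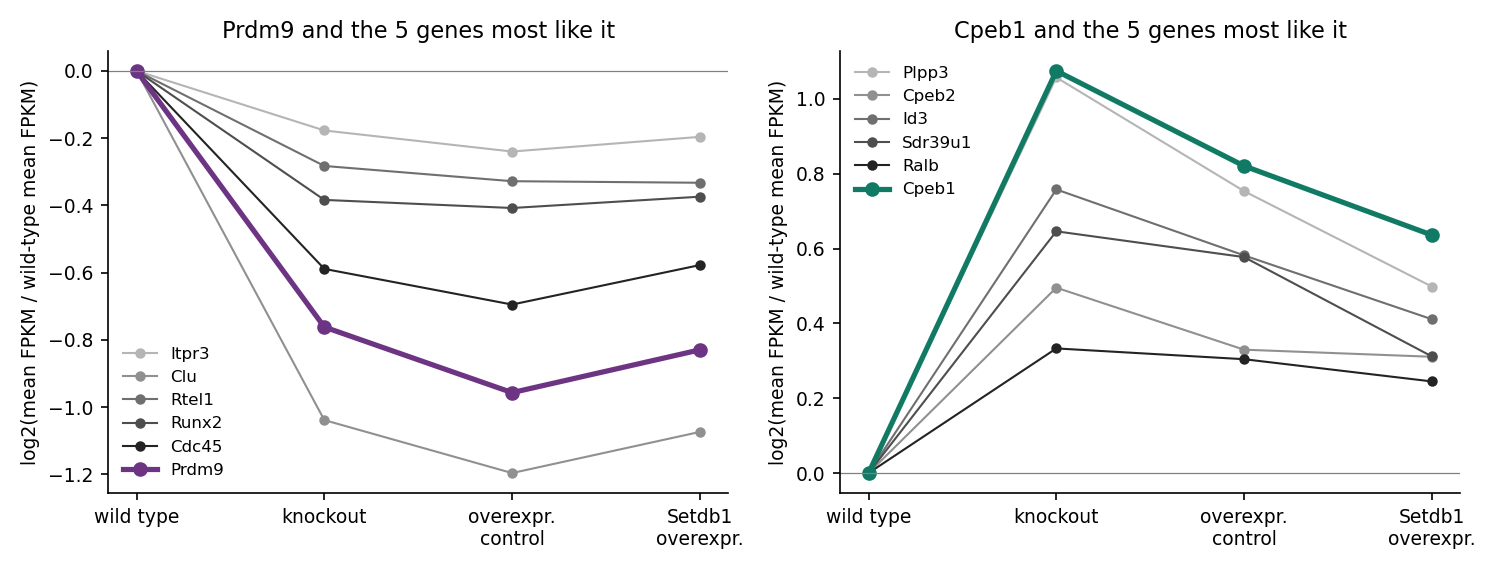
Mean FPKM of each member and of the 5 genes most like it, as log2 of the ratio to the wild-type mean, by group. Each line is 1 gene over 4 groups of 3 libraries; the lines for Prdm9 and its 5 genes lie below 0 in all 3 knockout groups and those for Cpeb1 are higher than 0, with the highest point in the unmodified knockout.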

How the data were processed

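RNA came from Trizol extraction and went into standard Illumina libraries, per the labels' protocols. The submitters' processing notes name cutadapt, HISAT2, StringTie, edgeR and DESeq2 with no role or version; the genome build was not given in the sources used here. The authors deposited 1 table of FPKM values for 2281 preselected genes, and its p-values and q-values, deposited by the authors, are for a comparison that the file does not name. In the authors' deposited table Prdm9 had p = 1.53e-07 and q = 1.53e-06, and Cpeb1 p = 3.69e-05 and q = 0.000234. No library columns were identical, and 0 columns belonged to other samples. Symbols and transcripts came from GENCODE M21 and promoters from RefSeq.

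The scale of analysis was log2(FPKM + 1). The filter, 0.1 FPKM or more in 3 or more libraries, left 2267 genes, both members included. A model with 1 mean per group over 12 libraries was fitted with limma 3.58.1 (R 4.3.3, intensity trend), with two-sided p-values adjusted by Benjamini-Hochberg over 2267 genes of each comparison. The threshold was an adjusted p of 0.05. The fit was tested on simulated data. Exact permutation tests used scipy 1.17.1. The members and gene lists were chosen with earlier results of these data known, the motifs after reading the sequences. Named were the members, at most 6 genes per list by largest change among those that passed, others needed to complete a small count, and the 5 genes most like each member. Other genes were named after their values were seen. Groups of 3 libraries were too small to look for outlying libraries. Some genes of the lists are not reported here and are in no list count.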

Additional observations from a re-analysis of the deposited data

How the results depend on the processing

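Each comparison was repeated with other pseudocounts, filters, scalings, spread models, a term for or omission of the libraries with haemoglobin transcripts, and each library left out. After the data were seen, the mean of the 3 knockout groups was also set against wild type (-0.584 for Prdm9, 0.385 for Cpeb1), which is another comparison. With it counted, Prdm9 kept its direction and call against wild type in 18 of 18 alternatives for the knockout (-0.74 to -0.48) and 17 of 17 for Setdb1 overexpression (-0.79 to -0.50). Cpeb1 did so in 18 of 18 for the knockout (0.36 to 0.97) and in 16 of 17 for Setdb1 overexpression. The lowest size for the knockout, in both genes, came from the fit with 1 library left in each group. The exception was 0.222 (limma adjusted p = 0.0807) without the libraries with haemoglobin transcripts, a fit with fewer libraries. With the unmodified knockout in place of the control, Setdb1 overexpression gave -0.038 for Prdm9 and -0.233 for Cpeb1, against 0.079 and -0.092 with the control. Leaving out single libraries gave -0.158 to -0.037 for Cpeb1 there, past the threshold only without control library 1. The control and the unmodified knockout differed in 167 genes, in 103 with only these groups fitted, in 64 with the haemoglobin term, in 40 without those libraries and in 93 to 136 on leaving out single libraries (93 without control library 2, 99 and 100 without knockout libraries 1 and 2); the cause was not tested. The replicate numbers showed no clear pairing: deviations of same-numbered libraries correlated at -0.70 to 0.43, with 1 of 18 pairs over 0.1. Those of differently numbered libraries correlated at -0.64 to 0.77, with 4 of 36 over 0.1. The highest value was for wild-type library 1 with knockout library 3, the libraries of these groups with less haemoglobin. The part of haemoglobin transcripts in these values was not tested, so pairing is not excluded. With a replicate block the control and the knockout differed in 124 genes, Prdm9 stood at -0.532 and Cpeb1 at 0.509 in the knockout, and no call of either gene changed. Depth is unknown, so counting error at these low levels could not be given.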

Other observations

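Of 13 tested genes for enzymes that write or remove methyl groups on lysines 4 and 36 of histone H3, and their partners, 5 rose and 6 fell in the knockout, near the shares over all tested genes (37.1% higher, 39.7% lower). The methyltransferase gene Smyd2 went from 14.9 ± 1.36 to 20.3 ± 1.11 FPKM (0.42, limma adjusted p = 0.00027), and the demethylase gene Kdm1b fell by 0.26. With Setdb1 against its control 2 rose and 6 fell, beside 33.8% and 30.6% over all tested genes. The demethylase gene Kdm4a went from 17.1 ± 0.738 to 12.5 ± 0.263 FPKM (-0.42), Rbbp5, a subunit of the H3 lysine 4 methyltransferase complexes, fell by 0.42, and the methyltransferase gene Setd1a rose by 0.33. Against wild type, Kdm5a stood at -0.32 with Setdb1.

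Of 8 tested genes of a list of chromatin and DNA methylation factors, most of them repressors, 4 fell and 1 rose in the knockout, with a median of -0.01, beside 39.7% lower and 37.1% higher over all tested genes. Uhrf1, which guides maintenance DNA methylation, went from 48.5 ± 0.828 to 31.2 ± 0.179 FPKM (-0.62), and the DNA methyltransferase gene Dnmt1 (-0.23) and Pcgf6 (-0.25) fell, while Trim28 rose (0.27). With Setdb1 against its control 5 of the 8 rose and 2 fell, with a median of 0.22, beside 33.8% and 30.6% over all tested genes. Those that rose include Mga (0.24), Trim28 (0.23), Uhrf1 (0.23) and Dnmt1 (0.21). Tet3, whose enzyme acts in DNA demethylation and which is no repressor, fell there (-0.29). Dnmt3a stood at 0.40 in the knockout without passing (adjusted p = 0.0833 in limma) and at 0.47 with Setdb1 against wild type (adjusted p = 0.0409 in limma). It was uneven in wild type (3.67 ± 1.5 FPKM), beside 4.90 ± 0.0411 in the knockout and 5.22 ± 0.0779 with Setdb1. With Setdb1 against its control it stood at 0.03 and did not pass.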
